A study of Mus musculus with 19 samples.

Results

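The 3 transcripts ENSMUST00000092956, ENSMUST00000032729 and ENSMUST00000055518 are the ones whose share of FMRP tags was called lower in activated than in control libraries at 30 min when same-numbered libraries were paired. They were selected on the measured tag counts of that comparison, from 49932 transcripts with a tag in any of 19 libraries, and all 3 were among the 2871 that passed the filter on low counts. Every library was made from CA1 tissue of acute mouse hippocampal slices, crosslinked and then handled in cycloheximide, with the genotype Camk2a-Cre x Fmr1 cTag, in which Cre under the Camk2a promoter switches on a tag on FMRP in the cells that express Cre. The tissue carried AAV-ChR2, a viral vector for a light-gated ion channel (opto), or AAV-Control (control). The times were 30 min and 5 min from activation, and each time had 4 libraries of either vector. Another 3 libraries, noCre by title and treatment, measured what the purification recovers without the tag, although their other labels still give the Cre genotype. The labels do not say which animals or slices gave each library, so p-values measure the spread between libraries, which may be technical.

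FMRP, the protein of the Fmr1 gene, binds messenger RNAs in neurons, travels with polyribosomes and represses the translation of many of the messages it holds. Its loss causes fragile X syndrome. In CLIP, ultraviolet light links a protein to the RNA it touches, the protein is purified, and each recovered piece of RNA is counted as a tag, so that a transcript's share of the tags reflects how much of it FMRP held and how abundant it was. A lower share can therefore come from less FMRP on a transcript or from less of the transcript, and in tissue from fewer cells holding it or less RNA per cell. These cannot be told apart here. The files give Ensembl transcript IDs, and the gene table used alongside, of assembly GRCm38.p6, matched 0 of them. Gene names, roles, positions, sequences and marker genes were therefore not used here.

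Depth differed widely between libraries and moved with the groups. The opto libraries at 30 min held 20456 to 121972 tags and their controls 81588 to 192471. At 5 min the opto libraries held 84614 to 256727 tags and the controls 40173 to 341445, and noCre held 34 to 5557. Levels below are tags per 1000000 tested tags (CPM), scaled between libraries by TMM. Levels are not corrected for transcript length, so those of different transcripts are set together only as ranks or differences read between groups.

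ENSMUST00000092956 was the transcript with the most tags of the 3. Replicates 1 to 4 held 9, 3, 27 and 9 tags in the opto libraries at 30 min, or 684, 148, 329 and 321 CPM, and 66, 145, 80 and 172 tags in the controls, or 1253, 1126, 881 and 1419 CPM. All 4 opto libraries lay below all 4 controls, and the highest opto value, in replicate 1, came from the shallowest library. The mean was 371 ± 225 CPM in opto and 1170 ± 227 CPM in control (SD, n = 4), and the paired edgeR fit gave a log2 fold change of -1.69 (SE 0.28), a 3.23-fold lower level. Its adjusted p in that fit, 0.000695, is the value that put the transcript on the list and is no independent test.

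ENSMUST00000032729 held 2, 4, 14 and 3 tags in the opto libraries, or 152, 197, 171 and 107 CPM. The controls held 26, 69, 34 and 35 tags, or 493, 536, 374 and 289 CPM. The groups again did not overlap, and replicate 4 was the lowest library in both. The means were 157 ± 37.9 and 423 ± 113 CPM (SD, n = 4). The paired fit gave -1.31 (SE 0.31) on the log2 scale, 2.48-fold lower, with an edgeR adjusted p of 0.0438, the nearest to the 0.05 threshold of the 3.

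ENSMUST00000055518 had the fewest tags. Its opto libraries held 1, 1, 7 and 1 tags, or 76.0, 49.3, 85.4 and 35.7 CPM, and its controls 27, 40, 18 and 24 tags, or 512, 311, 198 and 198 CPM. All opto values lay below all controls, but 3 of the 4 opto values rest on a single tag. The means were 61.6 ± 23.1 and 305 ± 148 CPM (SD, n = 4), and control replicate 1 alone stood at 512. The paired log2 fold change was -1.85 (SE 0.42), 3.61-fold lower, with an edgeR adjusted p of 0.0332.

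**Figure D1:**
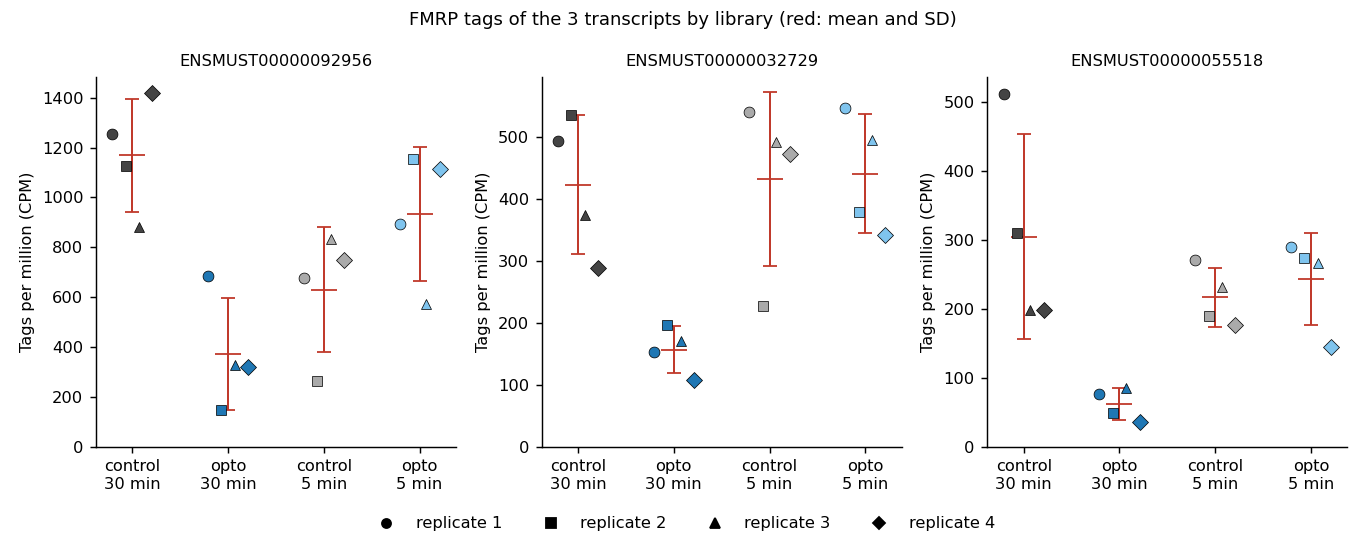
CPM (linear axis) of each transcript in the 16 tagged libraries by group, with marker shapes for the replicate number and the mean and SD in red (n = 4). In every panel the 4 opto libraries at 30 min lie below the 4 controls at 30 min, while the groups at 5 min overlap.

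Each same-numbered pair can be read by itself, with an exact 95% interval for the ratio of opto to control that covers counting error only. At 30 min each of the 3 transcripts was lower in opto in all 4 pairs, by 1.83-fold to 7.62-fold. The rule favoured this, and 309 of the 2871 tested transcripts (10.8%) were lower in all 4 pairs. For ENSMUST00000092956 the ratios were 0.546, 0.131, 0.374 and 0.226 in pairs 1 to 4, and the intervals of pairs 2, 3 and 4 lay below 1. The pairs thus ranged from 1.83-fold to 7.62-fold lower, and the interval of pair 1, the least lowered, reached past 1. For ENSMUST00000032729 the ratios were close together, at 0.308, 0.368, 0.456 and 0.371, with an SD of 0.23 on the log2 scale against 0.89 for ENSMUST00000092956. The paired rule favours a small spread between pairs, so this closeness is no separate result. With so few opto tags the intervals were wide, 0.0354 to 1.23 in pair 1 and 0.0730 to 1.18 in pair 4, and only those of pairs 2 and 3 stayed below 1. For ENSMUST00000055518 the ratios were 0.148, 0.159, 0.431 and 0.180. Here the intervals of pairs 1 and 2 lay below 1, with upper ends of 0.900 and 0.936, and those of pairs 3 and 4 ended at 1.08 and 1.11. Of these 12 ratios, 7 were lower by more than their own counting error. The 3 transcripts share the same 4 pairs of libraries, so the ratios are not 12 replicates.

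**Figure D2:**
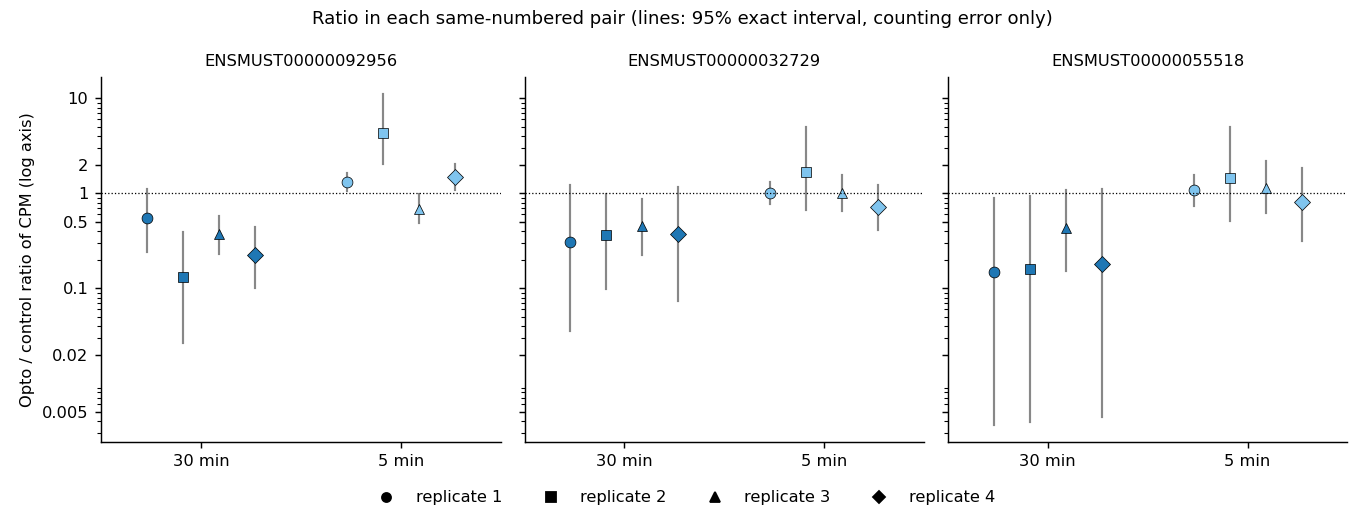
Ratio of opto to control CPM (log axis) in each same-numbered pair at 30 and 5 min, with lines for the exact 95% interval and marker shapes for the replicate number; the dotted line marks equal levels. All 12 points at 30 min lie below 1, and at 5 min 9 of 12 lie above it.

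The list ends close to its threshold. ENSMUST00000032729, the last inside it, had an adjusted p of 0.0438 and ENSMUST00000102592, the next outside, 0.0718, both from the paired edgeR fit. ENSMUST00000102592 was at 207 ± 86.2 CPM in opto and 469 ± 125 CPM in control at 30 min (SD, n = 4), and its log2 fold change was -1.22 (SE 0.31), close to the -1.31 of ENSMUST00000032729. Without pairing, ENSMUST00000092956 alone passed, with an edgeR adjusted p of 0.0172, against 0.244 for ENSMUST00000032729 and 0.169 for ENSMUST00000055518. The log2 fold changes hardly moved, at -1.78, -1.39 and -2.04. In this unpaired edgeR fit ENSMUST00000092956 missed without opto replicate 2, 3 or 4 (adjusted p = 0.140, 0.143 and 0.147), and all 3 transcripts passed without control replicate 4 (adjusted p = 0.0467 each).

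Single libraries also decided who passed. When each library at 30 min was left out of the paired fit in turn, ENSMUST00000092956 passed in 6 of 8 fits and missed in edgeR without opto replicate 4 (adjusted p = 0.0716) or control replicate 4 (0.0751). ENSMUST00000055518 passed in 2 of 8, without opto or control replicate 3 (edgeR adjusted p = 0.0143 and 0.0144). ENSMUST00000032729 passed in 0 of 8, with edgeR adjusted p from 0.0666 to 0.218. The log2 fold changes of all 3 stayed negative in all 8 fits, from -2.64 to -1.26. Leaving out one library of a pair also takes its partner out of the paired contrast, which is why both members of a pair gave nearly the same value.

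The rule alone makes the 3 transcripts stand out at 30 min, and nothing is read from that. For scale, 3 of the 2871 tested transcripts (0.104%) were called lower and 6 higher in the paired fit. That count rests on single libraries: the fit called 15 lower without opto replicate 3 and 16 without control replicate 3, 0 without opto or control replicate 4, and 1 without replicate 1 or 2 of either group. Of the 2871, 98 (3.41%) had all 4 opto values below all 4 controls, and 309 (10.8%) were lower in all 4 pairs. The median paired log2 fold change over all tested transcripts was -0.02. There were 8 transcripts with a lower value than any of the 3 and 52 at or below that of ENSMUST00000032729, the members included.

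The libraries taken at 5 min, a separate set with its own controls, ask whether the same 3 transcripts differed there too. The difference of opto and control at 5 min is not the contrast that chose them, but the 5 min libraries shared the filter and the estimate of spread of the paired fit that did. None of the 3 was called. At 5 min 0 of the 3 passed, and 0 of 2871 (0%) in either direction, in edgeR's test, with 53 at an unadjusted p under 0.05. DESeq2 also called 0, with 31. Both counts are below the share of 0.05 that evenly spread p-values would give. The tests may thus be cautious, which limits what the lack of calls shows. None of the 3 had groups that did not overlap, a pattern found in 64 transcripts (2.23%). The median of all tested transcripts was a log2 fold change of 0.00, and the median of the 3 was 0.17.

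ENSMUST00000092956 held 157, 76, 75 and 62 tags in the opto libraries at 5 min, or 893, 1153, 570 and 1116 CPM, and 160, 7, 61 and 106 tags in the controls, or 676, 264, 833 and 748 CPM. It was higher in opto in pairs 1, 2 and 4 and lower in pair 3, and in each pair the difference was larger than counting error. The means were 933 ± 268 and 630 ± 252 CPM (SD, n = 4). The log2 fold change was 0.43 (SE 0.25, edgeR adjusted p = 1.00), with a 95% interval of -0.08 to 0.95, which reaches from 0.945-fold to 1.93-fold. Pair 2 had the largest ratio, 4.36, with an interval of 2.02 to 11.2, and its control rests on 7 tags. Over the alternatives the log2 fold change ran from 0.30 to 0.63 and the adjusted p, from edgeR or DESeq2, from 0.724 to 1.00.

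ENSMUST00000032729 held 96, 25, 65 and 19 tags in opto, or 546, 379, 494 and 342 CPM, and 128, 6, 36 and 67 in control, or 541, 227, 491 and 472 CPM. Pairs 1 and 3 were nearly equal, with ratios of 1.01 and 1.01, pair 2 was higher in opto and pair 4 lower. The log2 fold change was -0.04 (SE 0.23, edgeR adjusted p = 1.00), with a 95% interval of -0.50 to 0.43, or 0.705-fold to 1.34-fold. Its sign turned with single libraries left out, between -0.16 and 0.09, so it has no direction at 5 min.

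ENSMUST00000055518 held 51, 18, 35 and 8 tags in opto, or 290, 273, 266 and 144 CPM, and 64, 5, 17 and 25 in control, or 270, 189, 232 and 176 CPM. It was higher in opto in 3 of 4 pairs, none by more than counting error. The log2 fold change was 0.17 (SE 0.28, edgeR adjusted p = 1.00), with a 95% interval of -0.40 to 0.75, or 0.755-fold to 1.68-fold. Pairing gave 0.40, -0.02 and 0.11 for ENSMUST00000092956, ENSMUST00000032729 and ENSMUST00000055518, each with an edgeR adjusted p of 0.999.

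**Figure D3:**
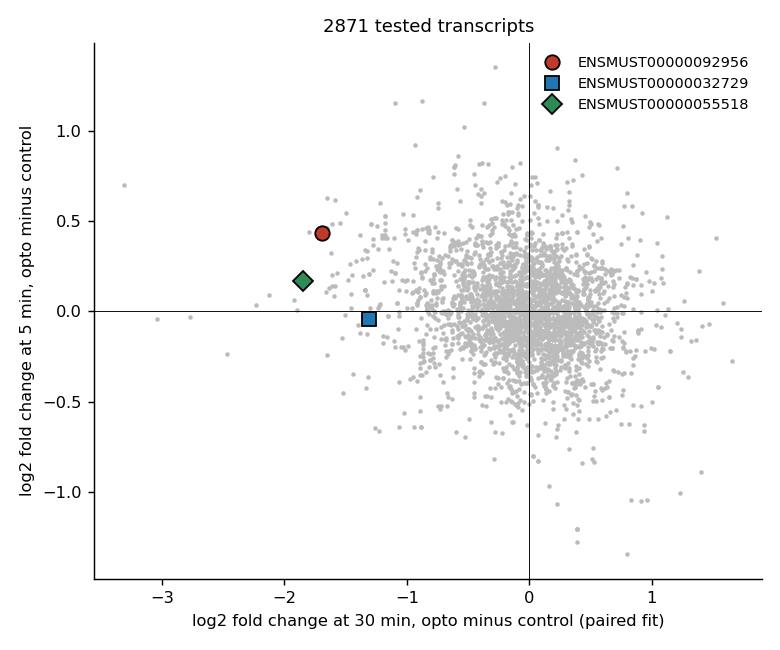
Log2 fold change of opto over control at 30 min (paired fit, horizontal axis) and at 5 min (fit without pairing, vertical axis) for the 2871 tested transcripts in grey, with the 3 transcripts in colour. They lie between -1.85 and -1.31 on the 30 min axis, which chose them, and between -0.04 and 0.43 on the 5 min axis.

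Set side by side without a test, since the 30 min values enter both the rule and the difference, the 30 min response minus the 5 min response was -2.22 for ENSMUST00000092956, -1.35 for ENSMUST00000032729 and -2.21 for ENSMUST00000055518, on the log2 scale and without pairing. Each time is a separate set of libraries, so time cannot be told apart from the set. Where each transcript stood among the 16 libraries differed. ENSMUST00000032729 had 423 ± 113, 433 ± 140 and 440 ± 95.8 CPM in the 30 min controls, the 5 min controls and the 5 min opto libraries (SD, n = 4), 3 means within a fraction of their SD, and its opto libraries at 30 min were the 4 lowest of all 16. ENSMUST00000055518 had 217 ± 42.9 CPM in the 5 min controls and 243 ± 67.0 CPM in 5 min opto (SD, n = 4), and its opto libraries at 30 min were again the 4 lowest. The rule favoured low 30 min opto values, and the share of all tested transcripts with this pattern was not counted. ENSMUST00000092956 did not have this pattern. Its means ran from 371 through 630 and 933 to 1170 CPM, from 30 min opto to 5 min control, 5 min opto and 30 min control. Its lowest 30 min control, 881 CPM, lay above its highest 5 min control, 833 CPM, and its 5 min control replicate 2, at 264 CPM, lay within the range of the 30 min opto libraries.

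Ranks among the 2871 tested transcripts give the same order without a scale. By mean CPM, ENSMUST00000092956 ranked 107 in the 30 min controls and 618 in 30 min opto, and 262 and 140 in the 5 min controls and 5 min opto. ENSMUST00000032729 ranked 501 and 1642 at 30 min, and 493 and 468 at 5 min. ENSMUST00000055518 went from 796 in the 30 min controls to 2722 in 30 min opto, near the end of the tested list, and stood at 1199 and 1062 at 5 min. Its rank of 2722 rests on 10 tags in all.

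How far the 3 move together was asked next. Over the 16 tagged libraries the Pearson correlation of log2 CPM was 0.89 for ENSMUST00000032729 with ENSMUST00000055518, 0.70 for ENSMUST00000092956 with ENSMUST00000055518 and 0.62 for ENSMUST00000092956 with ENSMUST00000032729 (n = 16). These are descriptions, because choosing transcripts that are low in the same 4 libraries makes them correlate, and because the libraries also share their depth. After the group means were removed the values were 0.59, 0.18 and 0.15, so the likeness of ENSMUST00000092956 to the other two was far weaker within the groups than across them.

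The 8 libraries at 5 min allowed a test outside the 30 min contrast, with 3 correlations compared, although their spread entered the fit that chose the members. None passed with all 8 libraries. The permutations treated the libraries as unrelated and do not allow for same-numbered libraries that deviate together. For ENSMUST00000032729 and ENSMUST00000055518 Pearson's r was 0.559 (exact permutation p = 0.146, adjusted 0.298, two-sided) and Spearman's rho 0.667 (exact permutation p = 0.0831, adjusted 0.249). Without the 2 libraries farthest from the median of the first, opto replicate 4 and control replicate 2, r was 0.117 (exact permutation p = 0.753). Without opto replicate 2 alone, rho rose to 0.893 and passed (exact permutation p = 0.0123, adjusted 0.0369, n = 7), while r was 0.644 (exact permutation p = 0.0952, adjusted 0.215). For ENSMUST00000092956 and ENSMUST00000032729 r was 0.503 (exact permutation p = 0.198, adjusted 0.298) and rho -0.0238 (exact permutation p = 0.977, adjusted 0.977). That value rests on control replicate 2, without which r was -0.734 (exact permutation p = 0.0661, adjusted 0.146). For ENSMUST00000092956 and ENSMUST00000055518 r was 0.0859 (exact permutation p = 0.848, adjusted 0.848) and rho 0.190 (exact permutation p = 0.665, adjusted 0.977), and without control replicate 2 r was -0.303. Leaving out the 2 farthest libraries, opto and control replicate 2, gave -0.639 and -0.589 for the pairs with ENSMUST00000092956 (exact permutation p = 0.193 and 0.236, n = 6).

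**Figure D4:**
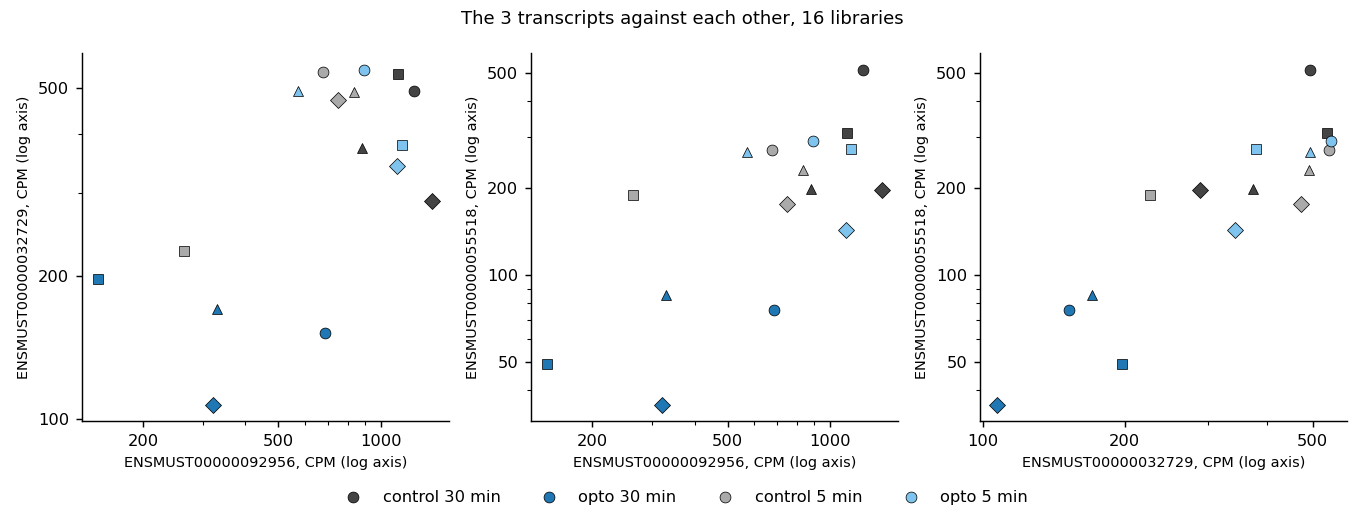
CPM of each transcript against the other two (log axes) in the 16 tagged libraries, coloured by group, with circle, square, triangle and diamond for replicates 1 to 4. The 30 min opto libraries, whose values helped to choose the transcripts, are the 4 lowest on the vertical axis of each panel. At 5 min none of the 3 correlations passed.

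ENSMUST00000032729 and ENSMUST00000055518 shared an extreme library in every group. Replicate 4 was the lowest of both in 30 min opto, 30 min control and 5 min opto, and replicate 1 the highest of both in 5 min opto and 5 min control. At 30 min the lowest place says little for ENSMUST00000055518. Its opto replicates 1, 2 and 4 held 1 tag each, so replicate 4 was lowest only as the deepest of these. Its control replicates 4 and 3 were nearly equal, at 197.985 and 198.237 CPM. Their highest libraries differed at 30 min, replicates 2 and 3 in opto and 2 and 1 in control, and so did their lowest 5 min controls, replicates 2 and 4. ENSMUST00000092956 shared its highest library with neither in any group, and its lowest only with ENSMUST00000032729, in replicate 2 of the 5 min controls. In the 30 min controls replicate 4 was its highest library and the lowest of the other two. Within a library, where scaling cancels, log2 CPM of ENSMUST00000032729 minus that of ENSMUST00000055518 had a mean of 0.51 ± 0.40 in the 30 min controls, 1.11 ± 0.37 in 30 min opto, 0.88 ± 0.46 in the 5 min controls and 0.82 ± 0.28 in 5 min opto (SD, n = 4). These differences overlap between groups and, with different transcript lengths, only their change has a meaning. The same difference for ENSMUST00000092956 minus ENSMUST00000032729 ran from -0.37 to 2.02 within the 30 min opto libraries alone. Together the 3 transcripts held 81 tags in the 4 opto libraries at 30 min, 8 to 48 per library, against 736 in their controls, and 687 and 682 in opto and control at 5 min.

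Depth moved with the 30 min groups, so the levels were set against it at 5 min, where the depths of opto and control overlapped more. This relation was chosen after the data were seen, with 3 correlations compared. The permutations did not keep same-numbered libraries together, although these tended to deviate together, so the p-values do not allow for that. ENSMUST00000032729 rose with the log2 total of tags over the 8 libraries at 5 min, with r = 0.923 (exact permutation p = 0.00057, adjusted 0.00171) and rho = 0.905 (exact permutation p = 0.00456, adjusted 0.0137). Within the groups r was 0.923 (exact permutation p = 0.00521, adjusted 0.0156), and without the deepest and the shallowest library, control replicates 1 and 2, it was 0.833 (exact permutation p = 0.0264, adjusted 0.0792, n = 6), which did not pass. Of the 2871 tested transcripts, 10 (0.348%) had an r at least as high. The median r over the 2871 was 0.0482, but the range was wide, with 5% and 95% quantiles of -0.758 and 0.788. For ENSMUST00000055518 r was 0.517 (exact permutation p = 0.192, adjusted 0.287) and rho 0.500 (exact permutation p = 0.216, adjusted 0.324), and without the 2 farthest libraries r was 0.405 (exact permutation p = 0.418, n = 6). For ENSMUST00000092956 r was 0.358 (exact permutation p = 0.395, adjusted 0.395) and rho -0.0714 (exact permutation p = 0.882, adjusted 0.882), and without the 2 farthest libraries r was -0.651 (exact permutation p = 0.189, n = 6).

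Values that bear on depth at 30 min differed between the transcripts. With the log2 total of tags as a covariate of the paired fit, also chosen after the data were seen, the log2 fold change at 30 min was -1.59 for ENSMUST00000092956, -1.03 for ENSMUST00000032729 and -1.45 for ENSMUST00000055518, and the edgeR adjusted p was 0.0295, 0.994 and 0.994. This fit reuses the contrast that chose the members, so its adjusted p-values are no independent test. Depth moved with the groups in it, so depth and activation cannot be told apart. The deepest opto library at 30 min, replicate 3 with 121972 tags, can be read against the 5 other libraries with 81588 to 135474 tags, of which 2 are 30 min controls that the rule also used. ENSMUST00000092956 had 329 CPM in it and 833 to 1253 CPM in those 5. ENSMUST00000032729 had 171 CPM in it against 342 to 493, and ENSMUST00000055518 85.4 CPM against 144 to 512. The low values of this opto library are among those that chose the 3 transcripts, so they are given as a description and the part of depth in them was not tested. At the shallow end, opto replicate 4 at 30 min held 41721 tags and control replicate 2 at 5 min 40173. There ENSMUST00000092956 had 9 and 7 tags, or 321 and 264 CPM, ENSMUST00000032729 had 3 and 6 tags, and ENSMUST00000055518 had 1 and 5.

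**Figure D5:**
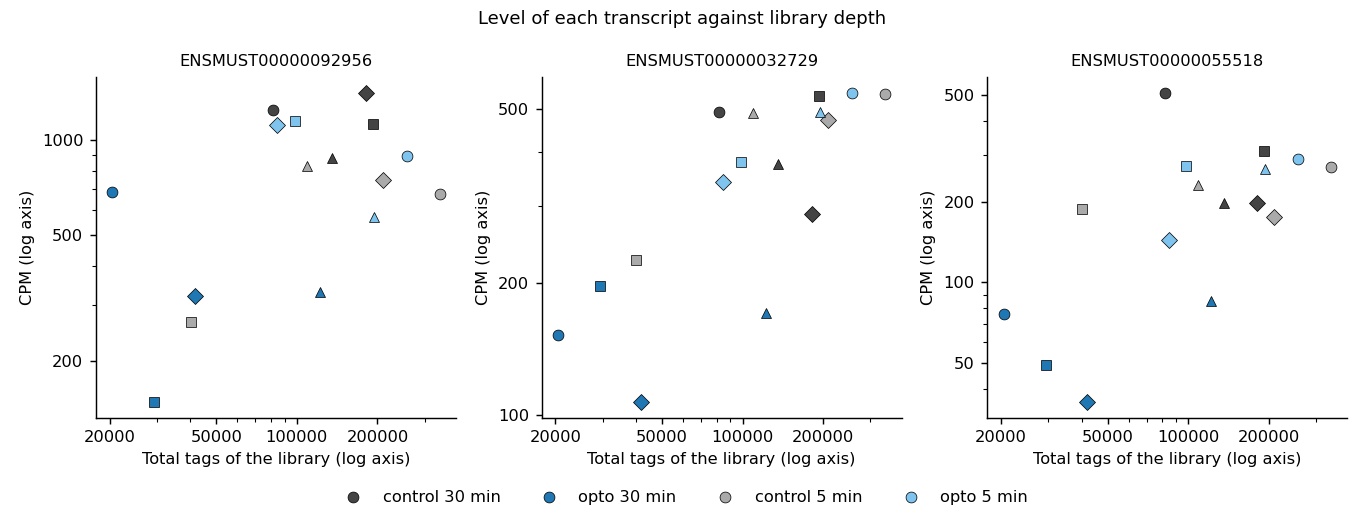
CPM of each transcript against the total tags of the library (log axes) in the 16 tagged libraries, coloured by group, with circle, square, triangle and diamond for replicates 1 to 4. Over the 8 libraries at 5 min ENSMUST00000032729 rises with depth (r = 0.923). The 30 min opto values, which helped to choose the transcripts, are shown as a description.

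By a rule of likeness, the transcript with the highest Pearson correlation of log2 CPM over the 16 tagged libraries was named for each member. It was ENSMUST00000097897 for ENSMUST00000092956 (r = 0.88), ENSMUST00000102592 for ENSMUST00000032729 (r = 0.94) and ENSMUST00000076623 for ENSMUST00000055518 (r = 0.93) (n = 16 libraries), each the highest among all tested transcripts outside the 3. Over the 5 min libraries alone these were 0.82, 0.98 and 0.85 (n = 8). Those 8 are among the 16 that named the transcripts, so the values are no separate check. ENSMUST00000102592 is also the transcript just outside the threshold. The median correlation of a member with all other tested transcripts was 0.05 to 0.13. The correlations share libraries and depth, and the 2 other members were not the likest: 7 transcripts were more like ENSMUST00000032729 than ENSMUST00000055518 was, and 161 were more like ENSMUST00000092956 than ENSMUST00000032729 was. None of the 3 had the same counts as another tested transcript in every library.

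The purification background of the 3 transcripts could not be resolved at the depth of the noCre libraries. ENSMUST00000092956 had 1 tag, in replicate 1, and ENSMUST00000055518 had 1, in replicate 3. ENSMUST00000032729 had 1 tag in each of replicates 1 and 3. Of the 6478 noCre tags together these are 0.0154% (95% Wilson interval 0.00273 to 0.0874%), 0.0154% with the same interval, and 0.0309% (0.00847 to 0.113%). The pooled controls of both times had 0.0618%, 0.0171% and 0.0311% for ENSMUST00000092956, ENSMUST00000055518 and ENSMUST00000032729, all within those intervals. At the shares of the controls 4.00 noCre tags of ENSMUST00000092956 and 2.01 of ENSMUST00000032729 would be counted. The count of 0 for ENSMUST00000092956 in the deepest noCre library, replicate 3, allows a share of up to 0.0540%.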

How the data were processed

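FMRP CLIP tags were counted per transcript in 19 libraries. The deposited values are whole-number counts, per the file headers, not normalized; a transcript absent from a file was taken as 0. The submitters' processing notes name cutadapt, STAR and mm10 without roles; duplicate handling and isoform assignment, not given in the sources used here, could change counts. Groups came from titles. The members and lists were chosen with earlier results of these data known.

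edgeR 4.0.16 (R 4.3.3) fitted the 16 Cre-positive libraries with filterByExpr (minimum count 10, minimum total 15), TMM scaling, the quasi-likelihood test and Benjamini-Hochberg adjustment over 2871 transcripts, threshold 0.05. Simulated data, with 1 common spread and no replicate effect, tested the 5 min contrast only, with and without the replicate block. The 30 min contrast that chose the members was not tested in this way. The fit without the replicate block is the main one at 5 min; the rule's own fit at 30 min pairs libraries by number within a time. Same-numbered libraries deviated together at correlations of 0.202 to 0.689 among 334 transcripts averaging 50 tags or more, and 0.0915 to 0.332 over all 2871, where 2 of 8 were under 0.1; the labels do not state a pairing.

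Log2 CPM used a prior count of 2. Intervals are 95%, exact for ratios and Wilson for shares; a count of 0 allows 3 tags; all cover counting error only. Correlations used exact permutation (scipy 1.17.1, Python 3.11.15), which did not keep same-numbered libraries together. Named transcripts are the 3, the nearest to the threshold on each side among those lower in opto, and the likest to each. Alternatives were DESeq2 size factors, library totals, 2 other filters, the libraries of a time alone, DESeq2 1.42.0, the block, leaving out each library and, added after seeing the data, thinning to 20456 tags, depth as a covariate, the block with each library left out, and the correlations with depth. The lists of FMRP-bound mRNAs and cell type markers need gene names and were not analysed here.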

Additional observations from a re-analysis of the deposited data

Results flagged for a closer look

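One level stood far from the rest of its group. ENSMUST00000055518 had 144 CPM in opto replicate 4 at 5 min, from 8 tags, while the other 3 libraries of the group ran from 266 to 290 CPM. The gap to the nearest library was 0.836 of the whole range, above the 95% critical value of Dixon's test for 4 libraries, and chance alone passes this in about 1 of 20 groups. The 3 transcripts, in 4 tagged groups each, gave several chances for such a gap. That library held 84614 tags, the fewest of its group. Its share was 0.00945% (95% Wilson interval 0.00479 to 0.0187%), and the other 3 shares ran from 0.0180 to 0.0199%. Over the 4 libraries the chi-square per degree of freedom was 1.18, where counting error alone gives about 1. The gap is therefore about as large as counting error can give. The part of depth in this value was not tested.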

How the results depend on the processing

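At 5 min 0 transcripts passed in any of 17 alternatives. The number at an unadjusted p under 0.05 in edgeR or DESeq2 ran from 10 of 1170 tested to 1401 of 49900 tested. The replicate block gave 105 and the fit without it 53, each of 2871 tested. The 3 transcripts did not pass at 5 min in any alternative that gave them a value. The sign of ENSMUST00000032729 at 5 min turned, from -0.04 to between -0.16 and 0.087 with single libraries left out and to 0.0050 with the replicate block and depth as a covariate. At 30 min the log2 fold changes of the 3 stayed negative in every alternative that gave them a value. ENSMUST00000032729 moved to -1.65 with no filter beyond 1 tag, to -1.60 to -1.25 without single libraries, to -1.54 to -1.26 with the block as well, and to -1.03 with the block and depth. ENSMUST00000055518 ran from -2.64 to -1.69 in the paired fit without single libraries, and was -1.45 with the block and depth. Thinned to 20456 tags, only ENSMUST00000092956 was still tested, at -1.79 with an edgeR adjusted p of 0.0896. Over the alternatives the adjusted p at 30 min ran from 7.03e-05 to 0.147, 0.0467 to 0.994 and 0.0143 to 0.994 for ENSMUST00000092956, ENSMUST00000032729 and ENSMUST00000055518 in edgeR or DESeq2. The 30 min contrast chose the members, so these are no independent tests. No Pearson correlation at 5 min passed under any alternative, and of the Spearman correlations that of ENSMUST00000032729 with ENSMUST00000055518 passed without opto replicate 2 (rho 0.893, exact permutation p = 0.0123, adjusted 0.0369). Pearson's r of ENSMUST00000092956 with ENSMUST00000032729 ran from -0.734 to 0.690 without single libraries and was -0.639 without the 2 farthest. Pearson's r of ENSMUST00000092956 with ENSMUST00000055518 ran from -0.303 to 0.526 without single libraries. It was -0.589 without the 2 farthest and -0.0199 within groups. Against depth, Pearson's r of ENSMUST00000092956 ran from -0.700 to 0.523 without single libraries and was -0.651 without the 2 farthest, where ENSMUST00000032729 had 0.833. In noCre without replicate 3 the share was 0.109% for ENSMUST00000092956 and for ENSMUST00000032729, each on 1 of 921 tags, and 0% for ENSMUST00000055518. The cause of these changes was not tested. Few tags limit the opto values at 30 min: ENSMUST00000055518 had 10 in all, so a pair's ratio is known only within its interval.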
